A study of Rattus norvegicus with 87 samples.

Results

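Gad1, Gad2, Slc32a1, Slc17a6 and Slc17a7 are the genes by which neurons are usually told apart as GABA-releasing or glutamate-releasing, and what follows gives their levels in Heterogeneous Stock (HS) rats, in dissected lateral habenula (LHb). They were chosen for what they encode, as the rows of the LHb gene table with the Ensembl identifiers ENSRNOG00000000007 (Gad1), ENSRNOG00000018200 (Gad2), ENSRNOG00000015393 (Slc32a1), ENSRNOG00000016147 (Slc17a6) and ENSRNOG00000020650 (Slc17a7). They are 5 of the 17512 genes in the table. All 5 were above 0 in every one of the 81 rats.

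Gad1 and Gad2 encode the glutamate decarboxylases GAD67 and GAD65, the enzymes that make the inhibitory transmitter GABA from glutamate. Slc32a1 encodes VGAT, the transporter that loads GABA and glycine into synaptic vesicles. Slc17a6 and Slc17a7 encode VGLUT2 and VGLUT1, the transporters that load glutamate into vesicles. VGLUT2 is typical of thalamic and other subcortical neurons, and VGLUT1 of cortical and hippocampal neurons. The LHb, a small nucleus above the thalamus that inhibits midbrain dopamine and serotonin neurons through its outputs, is known to consist mostly of glutamatergic neurons. The medial habenula and the thalamus lie beside it.

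HS rats are an outbred population derived from inbred founder strains, and those used here had been housed in groups and had received neither behavioural testing nor drugs. LHb tissue was dissected by hand from frozen brain sections, both sides of a rat were combined into 1 sample, and polyadenylated RNA was sequenced. The 81 rats, 41 males and 40 females, carried a rat batch number in their labels, and sex and rat batch were the only labels that differed between them. Batch 2 held 11 males and 4 females, batch 3 held 10 and 12, batch 4 held 12 and 15, and batch 6 held 8 and 8, whereas batch 5 held 1 female, which is described but entered no test. Each rat is 1 sample, so the spread below includes genetic differences between outbred animals, dissection and library preparation together.

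Values are estimated read counts that the authors had scaled to a common upper quartile, called normalized counts, and tests were made on log2(normalized count + 1). They were not divided by gene length, so a level is compared between rats and never between genes. After scaling, the totals lay between 16.2 and 20.2 M reads. The table holds no raw depth, but for 63 rats the raw total could be recovered from the low whole numbers and was 20.4 ± 7.02 M reads (SD, n = 63). Between 296 and 1661 genes were listed at 0 in a rat, with a median of 540. Because the table gives only Ensembl identifiers and no symbols, lists of marker genes for neighbouring regions or other cell types were not read from it. The LHb label was therefore not checked against markers beyond the 5 genes themselves.

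The columns of the table are sorted by rat identifier in 3 separate stretches, here named column runs, and the labels do not say what these stretches are. Where the authors had exchanged the identifiers of a pair of rats, the original identifiers were used for this order. Run 1 held all 15 rats of batch 2 and 7 of batch 3, run 2 held 12 rats of batch 3, and run 3 held 3 rats of batch 3 and every rat of batches 4, 5 and 6. Batch and column run therefore overlap, and results are given for both.

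The sequences just before the 5 genes are shown as a description, and whether they bear on the levels between rats was not tested. They are RefSeq sequences of the GRCr8 assembly, a later build than the Rnor_6.0 build of the submitters' processing notes, and were kept only up to the first annotated base of each gene, which left 58 bases for Gad1, 217 for Slc17a7 and 250 for each of the other three. All are on the plus strand, Gad1 at chr3:75777202-75777259, Gad2 at chr17:89671468-89671717, Slc32a1 at chr3:167686995-167687244, Slc17a6 at chr1:110348197-110348446 and Slc17a7 at chr1:104785955-104786171. Capitals mark every CANNTG, the E-box that basic helix-loop-helix factors bind, which reads the same on both strands.
Gad1: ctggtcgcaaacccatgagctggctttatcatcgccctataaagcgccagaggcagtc
Gad2: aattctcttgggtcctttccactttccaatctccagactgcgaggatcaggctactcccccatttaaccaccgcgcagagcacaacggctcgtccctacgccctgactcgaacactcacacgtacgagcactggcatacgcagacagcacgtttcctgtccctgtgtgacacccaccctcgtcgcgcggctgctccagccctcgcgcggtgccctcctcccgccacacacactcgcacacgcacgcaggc
Slc32a1: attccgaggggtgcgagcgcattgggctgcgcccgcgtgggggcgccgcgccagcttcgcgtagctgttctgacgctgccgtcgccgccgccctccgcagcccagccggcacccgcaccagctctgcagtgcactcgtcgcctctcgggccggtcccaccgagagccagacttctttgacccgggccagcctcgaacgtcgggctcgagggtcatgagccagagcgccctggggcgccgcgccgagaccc
Slc17a6: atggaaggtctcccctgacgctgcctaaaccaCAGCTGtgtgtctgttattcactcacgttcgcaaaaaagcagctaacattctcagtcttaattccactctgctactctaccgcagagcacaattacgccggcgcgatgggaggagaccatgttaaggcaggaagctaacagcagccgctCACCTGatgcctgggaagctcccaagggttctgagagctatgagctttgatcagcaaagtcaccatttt
Slc17a7: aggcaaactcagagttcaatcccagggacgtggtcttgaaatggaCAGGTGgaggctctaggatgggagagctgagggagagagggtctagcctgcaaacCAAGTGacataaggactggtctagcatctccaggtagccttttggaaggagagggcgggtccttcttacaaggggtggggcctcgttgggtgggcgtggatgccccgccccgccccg
Slc17a6 and Slc17a7 each held 2 E-boxes in these stretches, and Gad1, Gad2 and Slc32a1 held 0. The motif is common, since 65.5% of the 33469 RefSeq promoters held at least 1 in their first 250 bases. The share was 60.6% in the first 217 bases, the length taken for Slc17a7, and 22% in the first 58, the length taken for Gad1. Like the shares below, these count from the beginning of each promoter sequence and not back from the gene. TATAAA, the letters of the TATA box, was searched on both strands and was found once, before Gad1. The match began 21 bases before the first annotated base of Gad1, and 3.24% of promoter sequences held TATAAA in their first 58 bases. That share counts from the beginning of each promoter sequence, whereas the 58 bases of Gad1 end at its first annotated base. It is therefore not the share of genes with TATAAA just before their start. GGGCGG, the GC box bound by Sp1, was also searched on both strands and was found 3 times before Slc17a7 and once before Slc32a1, against 26.9% and 30.5% of promoters with at least 1. The stretches before Slc32a1 and Gad2 were rich in CG dinucleotides, with 34 and 22, where the median promoter held 5 and Slc17a6 held 9. These are descriptions of letters and not of bound sites.

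The GABA genes varied widely between rats. Gad1 was between 99 and 618 normalized counts over the 81 rats, with a median of 238. Gad2 was between 39 and 730, with a median of 124. Slc32a1 was between 19 and 220, with a median of 56. The highest rat exceeded the lowest 6.24-fold for Gad1, 18.7-fold for Gad2 and 11.6-fold for Slc32a1, and no rat lacked any of them. On the log2 scale the means were 7.94 ± 0.58 for Gad1, 7.0 ± 0.76 for Gad2 and 5.83 ± 0.67 for Slc32a1 (SD, n = 81). In bulk tissue, fewer cells of a type and less RNA per cell cannot be told apart, so none of these values counts GABA neurons.

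The 2 vesicular glutamate transporters differed from each other in how much they varied. Slc17a6 was between 5805 and 10484 normalized counts, with a median of 8220, and its highest rat exceeded its lowest only 1.81-fold. Slc17a7 was between 1766 and 7159, with a median of 3918, a 4.05-fold range. Their log2 means were 13.01 ± 0.15 and 11.96 ± 0.49 (SD, n = 81).

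**Figure D1:**
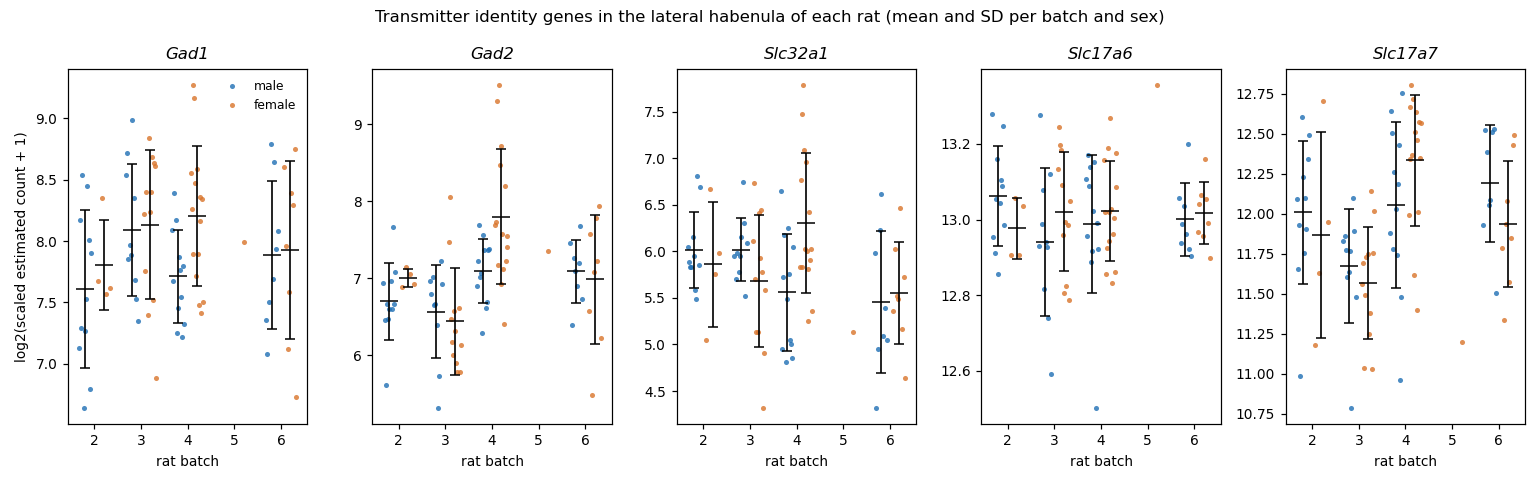
Level of each gene, as log2(normalized count + 1), in every rat, by rat batch and sex. Points are rats, and bars give the mean and SD of each batch and sex with more than 1 rat. Each panel has its own axis, which does not start at 0. Among batches 2, 3, 4 and 6, Gad2 and Slc17a7 have their lowest means in batch 3 and Slc17a6 stays between 12.98 and 13.04. The single rat of batch 5 is high for Slc17a6 and low for Slc17a7, and 2 females of batch 4 stand above all other rats for Gad1, Gad2 and Slc32a1.

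Low counts spread more on a log scale, so each gene was set beside the genes of like level, meaning those with a mean within 0.5 log2 units of its own. The spread used was the SD between the 80 rats of batches 2, 3, 4 and 6 after sex and batch had been removed. For Slc17a7 it was 0.43, above that of 99.3% of 718 genes of like level, whose median was 0.16. For Gad1 it was 0.57, above 97.4% of 2215 genes with a median of 0.24. Gad1 and Slc17a7 were thus among the most variable genes at their levels. For Gad2 it was 0.66, above 96% of 1670 genes with a median of 0.30, and for Slc32a1 it was 0.65, above 87.8% of 1192 genes with a median of 0.43. Slc17a6 was an ordinary gene by this measure, with 0.15, above 42.6% of 249 genes with a median of 0.16. Counting error was taken at the median normalized count, as though this were a number of raw reads. The coefficient of variation would then be 6.49% for Gad1, 8.98% for Gad2 and 13.3% for Slc32a1. For Slc17a6 and Slc17a7 it would be 1.11% and 1.59%. All are smaller than the spread between rats. In a rat with fewer raw reads or a lower count, counting error is larger than these values.

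**Figure D2:**
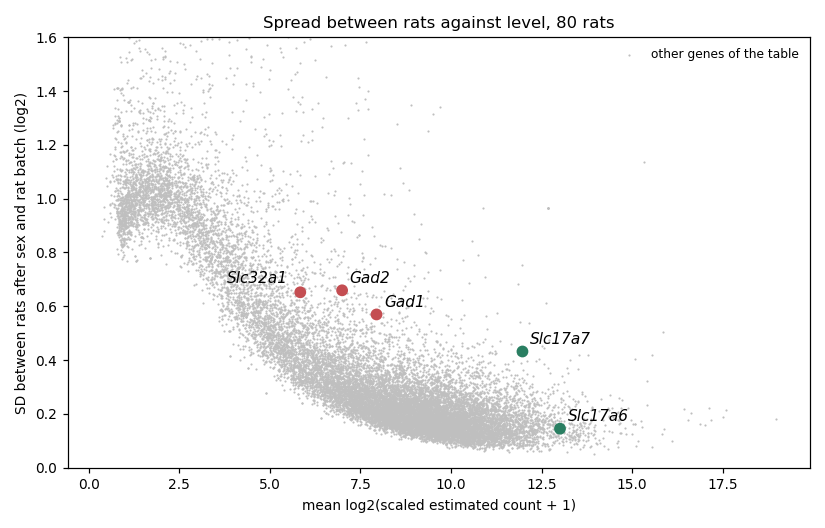
SD between 80 rats after sex and rat batch had been removed, against the mean of log2(normalized count + 1). Grey points are the genes of the table, with 308 genes above the plotted range of the SD. Red marks the GABA genes and green the glutamate transporters. Slc17a7, at 0.43, Gad1, at 0.57, and Gad2, at 0.66, lie above most genes of their level, Slc32a1, at 0.65, lies above 87.8% of them, and Slc17a6, at 0.15, lies in its middle.

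Between rat batches, 2 of the 5 genes differed, Gad2 and Slc17a7, where 65.3% of all genes were called by the same F-test (limma, adjusted p under 0.05 over 17512 genes). Differing between batches was therefore common in this table and not particular to these genes. Gad2 was between 48 and 202 normalized counts in batch 2 (median 117), between 39 and 266 in batch 3 (median 91), between 77 and 730 in batch 4 (median 164) and between 44 and 244 in batch 6 (median 141). The batches overlapped, with batch 3 lowest and batch 4 highest. The log2 means were 6.78 ± 0.45 (n = 15), 6.50 ± 0.64 (n = 22), 7.49 ± 0.79 (n = 27) and 7.04 ± 0.64 (n = 16), and the adjusted p was 4.18e-05 (limma).

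Slc17a7 had the same lowest and highest batch. It was between 2027 and 6676 normalized counts in batch 2 (median 3952), between 1766 and 4508 in batch 3 (median 3347), between 1994 and 7159 in batch 4 (median 5218) and between 2584 and 5913 in batch 6 (median 4286). Its log2 means were 11.97 ± 0.49, 11.61 ± 0.35, 12.21 ± 0.47 and 12.06 ± 0.39 in the same order, and the adjusted p was 0.00017 (limma). Without batch 3 the batch difference of Slc17a7 no longer passed (adjusted p = 0.346), whereas that of Gad2 did (adjusted p = 0.0277), with a range of batch means of 0.59 in place of 0.99. Without batch 4 the range of Gad2 was 0.54 (adjusted p = 0.0402).

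By pairs of batches in the same fit, with sex as a covariate, Gad2 was higher in batch 4 than in batch 3 by 0.99 (SE 0.185, adjusted p = 5.65e-06, limma), a pair in which 54.9% of genes were called. Slc17a7 was higher by 0.59 in the same pair (SE 0.121, adjusted p = 2.27e-05). Batch 6 also exceeded batch 3, by 0.55 for Gad2 (SE 0.211, adjusted p = 0.0205) and by 0.45 for Slc17a7 (SE 0.138, adjusted p = 0.00383), in a pair with 59.2% of genes called. Gad2 alone of the 5 also differed between batches 4 and 2, by 0.64 (SE 0.211, adjusted p = 0.0142), where 33.9% of genes were called. None of the 5 passed the test between batches 3 and 2, 6 and 2 or 6 and 4, pairs with 7.44%, 42.4% and 6.04% of genes called.

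Gad1, Slc32a1 and Slc17a6 did not pass the batch test. The batch means of Gad1 were 7.66, 8.11, 7.99 and 7.91 in batches 2, 3, 4 and 6 (adjusted p = 0.289, limma), so that batch 3, lowest for Gad2, had the highest mean for Gad1. Those of Slc32a1 were 5.97, 5.83, 5.97 and 5.50 (adjusted p = 0.132), and those of Slc17a6 stayed between 12.98 and 13.04 (adjusted p = 0.712). Batch took 26.4% of the variance of Gad2 and 24.2% of that of Slc17a7, against medians of 17.3% and 32% for genes of like level, and 2.01% of that of Slc17a6 against a median of 33.2%.

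The single female of batch 5 had the highest Slc17a6 of all rats, 10484 normalized counts, beside a low Slc17a7 of 2347. Its Gad1, Gad2 and Slc32a1 were at 253, 163 and 34.

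Column run and batch were then separated where the table allowed it. With column run added to the fit, the batch difference was no longer called for Gad2 (adjusted p = 0.174, limma) or Slc17a7 (adjusted p = 0.165). The ranges of their batch means were 0.68 and 0.42 in that fit, against 0.99 and 0.59 without column run. Batches 4 and 6 are tied to batches 2 and 3 there only through the 3 rats of batch 3 in run 3, so the estimates are imprecise. The range of the batch means of Gad1 was 1.21 in that fit, against 0.39 without column run, and did not pass (unadjusted p = 0.0427, adjusted p = 0.0969). The count of called genes in the table fell from 11444 to 6180. Within run 1, the difference between batches 2 and 3 passed the test for none of the 5 genes. Batch 3 minus batch 2 was 0.62 for Gad1 there (SE 0.268, unadjusted p = 0.0297, adjusted p = 0.554, limma). No gene of the table was called there (0% called), and 1507 had an unadjusted p under 0.05. Within run 3, the difference between batches 4 and 6 also passed for none of the 5, where 10% of genes were called. Batch 6 minus batch 4 was -0.43 for Gad2 (SE 0.217, adjusted p = 0.19) and -0.44 for Slc32a1 (SE 0.214, adjusted p = 0.166).

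Within batch 3, the rats of run 2 were compared with those of run 1, and 1 of the 5 genes differed, Slc17a6, where 23% of all genes did. Its 7 rats of run 1 were between 7809 and 9925 normalized counts (median 9295), and its 12 rats of run 2 between 6837 and 8645 (median 7826). The groups overlapped, with run 2 lower. The log2 means were 13.15 ± 0.12 and 12.90 ± 0.10, and the difference, with sex as a covariate, was -0.25 (SE 0.0573, adjusted p = 0.00844, limma). Thus the gene that was steadiest between batches differed between runs of the same batch. Gad2 was also lower in run 2, between 39 and 128 against between 63 and 266, by -0.64 (SE 0.275), which did not pass (adjusted p = 0.0933). For Gad1, Slc32a1 and Slc17a7 the differences were -0.03, 0.03 and -0.05, none of which passed. The 3 rats of batch 3 in run 3 had Gad1 between 117 and 184 normalized counts, where the 12 rats of run 2 had between 183 and 507. The 7 rats of run 1 had between 168 and 458. Those 3 rats of run 3 also had between 1404 and 1578 genes listed at 0, and this contrast was not tested. What the runs stand for was not tested.

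**Figure D3:**
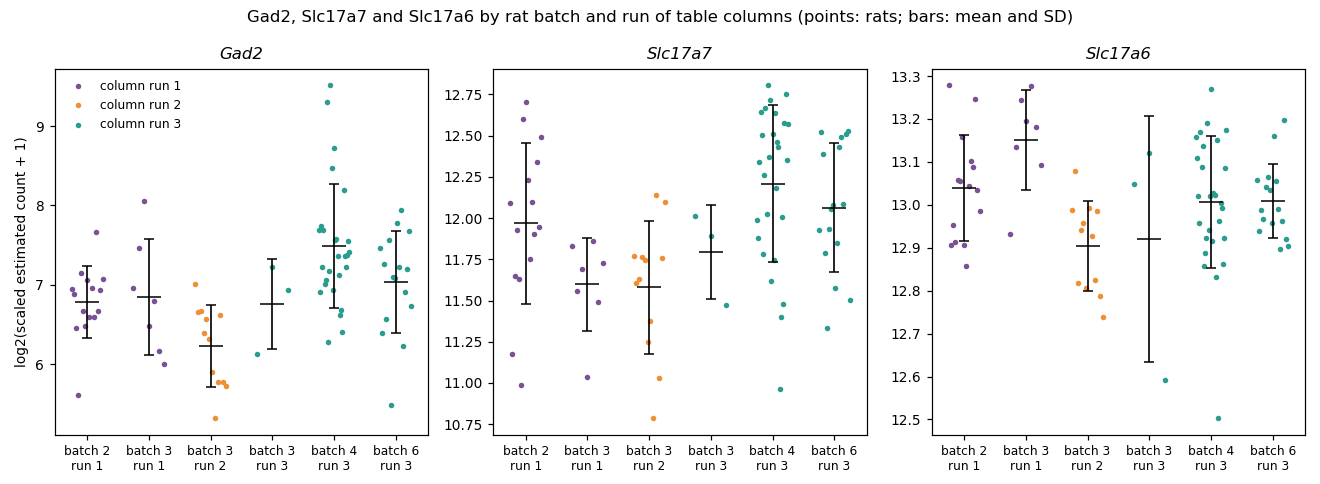
Gad2, Slc17a7 and Slc17a6, as log2(normalized count + 1), by rat batch and column run. Points are rats, coloured by column run, bars give the mean and SD, and the axes do not start at 0. Slc17a6 lies at 13.15 in run 1 and 12.90 in run 2 of batch 3, and Gad2 and Slc17a7 are highest in batch 4.

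No sex difference passed the test in any of the 5 genes (0 of 5 at an adjusted p under 0.05 and 0 of 5 at an unadjusted p under 0.05, limma with batch as a covariate), where 0.131% of genes, 23 in all, were called and 882 of 17512 had an unadjusted p under 0.05. Gad1 was between 99 and 507 normalized counts in males (median 222) and between 105 and 618 in females (median 299). The sexes overlapped over nearly their whole ranges. Male minus female was -0.22 (95% interval -0.48 to 0.03, adjusted p = 0.998, limma). For Gad2, males were between 39 and 205 (median 121) and females between 44 and 730 (median 139.5), a difference of -0.23 (-0.53 to 0.06). For Slc32a1 the medians were 57 and 56 and the difference was -0.16 (-0.45 to 0.13). Without batch 3 the difference was -0.38 for Gad2 and -0.36 for Slc32a1 (unadjusted p = 0.0301 and 0.0434, adjusted p = 0.999 for both, limma), and without batch 4 it was 0.02 and 0.15. The glutamate transporters gave the narrowest intervals, -0.03 (-0.09 to 0.04) for Slc17a6 and 0.01 (-0.18 to 0.20) for Slc17a7.

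The 3 GABA genes had their largest sex differences within batch 4. There Gad1 was between 148 and 334 normalized counts in the 12 males (median 209.5) and between 170 and 618 in the 15 females (median 306), a difference of -0.49 (SE 0.181). Gad2 was between 77 and 205 in males (median 141) and between 84 and 730 in females (median 190), a difference of -0.71 (SE 0.26). Slc32a1 was between 27 and 99 in males (median 48) and between 37 and 220 in females (median 64), a difference of -0.74 (SE 0.259). The sexes overlapped for each. The unadjusted p-values were 0.0106, 0.0111 and 0.0079, and the adjusted p over all genes was 1 for each (limma), so that none passed, with 0.0799% of genes called within this batch. Of 17512 genes, 645 had an unadjusted p under 0.05 there. The 3 genes were correlated with each other in this batch, as given below, so their differences are not separate observations. In the other batches the estimates were between -0.19 and -0.04 for Gad1, between -0.30 and 0.13 for Gad2 and between -0.10 and 0.34 for Slc32a1.

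Whether the sex difference varied between batches was tested as an interaction. No gene of the table passed (0% called), and 306 had an unadjusted p under 0.05, among them Slc32a1 (unadjusted p = 0.0208). Gad2 was at 0.0885. Without female rats 16 and 20 of batch 4, which had the highest GABA gene levels of all rats, the differences within batch 4 were -0.34 for Gad1, -0.46 for Gad2 and -0.54 for Slc32a1, with unadjusted p-values of 0.0361, 0.0341 and 0.0275 (limma). In that fit, 602 of 17512 genes had an unadjusted p under 0.05. Without those rats the pooled sex difference of Slc32a1 was -0.08, and the interaction of Slc32a1 had an unadjusted p of 0.0736.

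Over 80 rats pooled, the 3 GABA genes rose and fell together after sex and batch had been removed. All 10 pairs of the 5 genes were correlated over 80 rats and p-values, from 100000 permutations each and two-sided, were adjusted over the 10 pairs. Gad2 and Slc32a1 had Pearson's r = 0.51 and Spearman's rho = 0.49 (adjusted permutation p = 1e-04 and 2e-04, of which the unadjusted p of r, 1e-05, was the smallest the permutations could give). Gad1 and Gad2 had r = 0.40 and rho = 0.36 (adjusted permutation p = 0.0012 and 0.00465). Gad1 and Slc32a1 had r = 0.38 and rho = 0.32 (adjusted permutation p = 0.00207 and 0.0135). Each member of the trio was thus correlated with both others over the pooled rats. This did not hold within every batch, since r was between 0.71 and 0.76 in batch 4 but between -0.13 and 0.11 in batch 3, as given below.

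Gad2 and Slc17a6 were the 4th pair to pass, with r = 0.29 and rho = 0.30 (adjusted permutation p = 0.0257 and 0.0171), and within batches 2, 3, 4 and 6 their r was 0.33, 0.43, 0.26 and 0.27. With column run removed as well, r was 0.24 and no longer passed (adjusted permutation p = 0.0861). The 2 vesicular glutamate transporters had a correlation with each other that did not pass (r = 0.12, rho = -0.05, adjusted permutation p = 0.346 and 0.747). Gad1 and Slc17a7 had the lowest value of the 10 pairs, r = -0.18 and rho = -0.21 (adjusted permutation p = 0.181 and 0.114), and their r was -0.55, -0.34, 0.04 and -0.23 in batches 2, 3, 4 and 6.

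Leaving out the 2 rats farthest from the median of the first gene of a pair gave r = 0.40 for Gad2 and Slc32a1, 0.37 for Gad1 and Gad2 and 0.35 for Gad1 and Slc32a1. Leaving out female rats 16 and 20 of batch 4 instead gave r = 0.39, 0.29 and 0.27 (adjusted permutation p = 0.0045, 0.0346 and 0.0368). The rho of Gad1 and Slc32a1 then missed the threshold (rho = 0.25, adjusted permutation p = 0.0565).

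**Figure D4:**
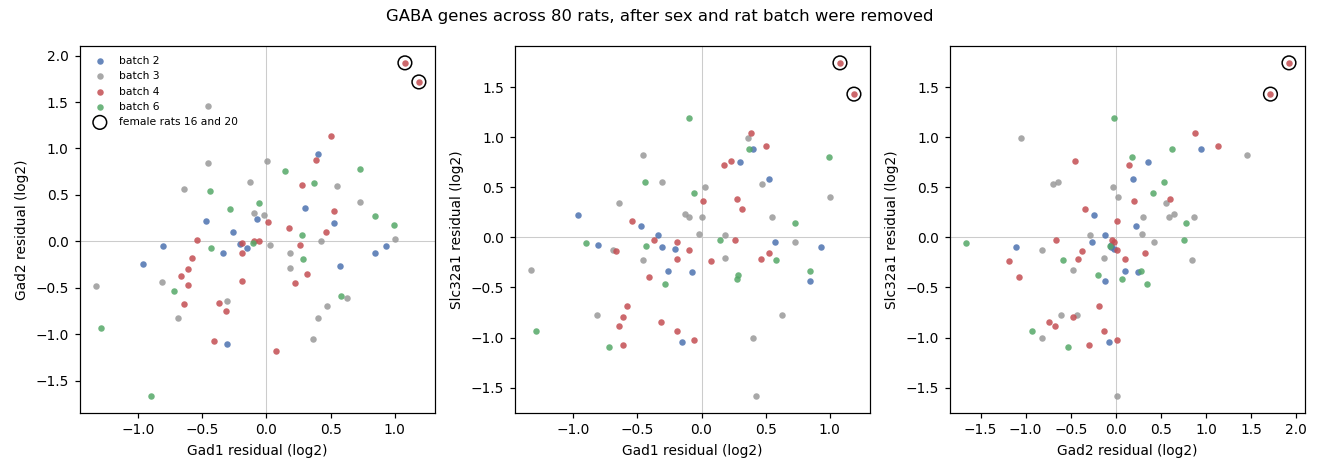
Residuals of log2(normalized count + 1) of Gad1, Gad2 and Slc32a1 after sex and rat batch had been removed, plotted against each other for 80 rats. Points are rats coloured by rat batch, and circles mark female rats 16 and 20 of batch 4. Gad2 and Slc32a1 form the tightest of the 3 clouds (r = 0.51). The red points of batch 4 tend to rise together in every panel, and the grey points of batch 3 do not. With sex removed within batch 4, r was between 0.71 and 0.76, and between 0.52 and 0.63 without the circled rats.

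Within single batches, the r of the GABA genes spanned a wide range. Gad1 and Gad2 had r = 0.74 in batch 4 (n = 27) and 0.56 in batch 6 (n = 16), but 0.24 in batch 2 (n = 15) and -0.13 in batch 3 (n = 22). Gad1 and Slc32a1 had r = 0.76, 0.39, 0.13 and -0.08 in the same order. For Gad2 and Slc32a1 the values were 0.71, 0.43, 0.50 and 0.11. Batch 4 thus had the highest and batch 3 the lowest value for each of the 3 pairs. Without female rats 16 and 20, the values in batch 4 were 0.56, 0.63 and 0.52 (n = 25). By column run, Gad1 and Gad2 had r = 0.07, 0.00 and 0.69 in runs 1, 2 and 3, Gad1 and Slc32a1 had 0.01, -0.09 and 0.61, and Gad2 and Slc32a1 had 0.70, -0.35 and 0.64. Whether these values differ between batches or runs beyond sampling was not tested.

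**Figure D5:**
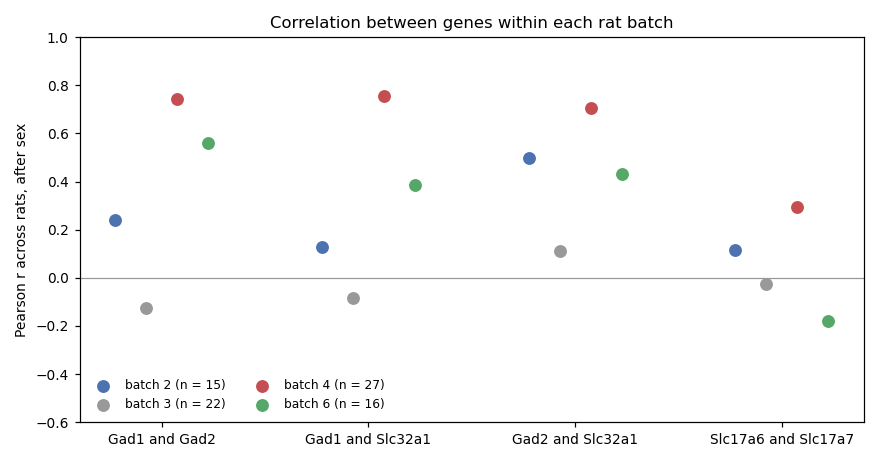
Pearson's r across rats within each rat batch, after sex had been removed, for the 3 pairs of GABA genes and for the 2 vesicular glutamate transporters. Each point is 1 batch, with its number of rats in the key. The GABA pairs lie between 0.71 and 0.76 in batch 4 and between -0.13 and 0.11 in batch 3, and Slc17a6 and Slc17a7 lie between -0.18 and 0.29.

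Among all genes with a mean log2 of at least 5, the GABA genes ranked near each other, as a description with no test. Ranked by Pearson's r of the residuals over the same 80 rats, Gad2 was the 2nd of 13359 genes for Slc32a1, and Gad1 was the 20th. For Gad2, Slc32a1 was the 12th and Gad1 the 165th. For Gad1, Gad2 was the 39th and Slc32a1 the 71st. Of the 100 genes nearest to each, Gad1 and Slc32a1 shared 15, Gad2 and Slc32a1 shared 7, and Gad1 and Gad2 shared 4. Sharing was not limited to GABA pairs, since Gad2 and Slc17a6 shared 6, and the other pairs of a GABA gene and a transporter shared between 0 and 2. Random sets of 100 among 13359 genes would share almost none, and whether these counts exceed that was not tested.

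The glutamate transporters had more neighbours at r above 0.5 than the GABA genes. For Slc17a7, 299 genes had r above 0.5 and 118 had r below -0.5, and the nearest, ENSRNOG00000023077, had r = 0.90. For Slc17a6, 626 genes had r above 0.5, and 1.39% of all had r below -0.5, and the nearest, ENSRNOG00000047085, had r = 0.80. The lowest values were -0.68 with ENSRNOG00000017689 for Slc17a7 and -0.65 with ENSRNOG00000019772 for Slc17a6. The 2 transporters shared 0 of their 100 nearest genes. Random sets of 100 among 13359 genes would also share almost none, so this 0 is not particular to the pair. For the GABA genes, 7 genes had r above 0.5 with Gad1, 22 with Gad2 and 2 with Slc32a1. These counts were not compared with those of other genes of like level. All of these correlations share the same libraries and scaling, and counting error is larger in the GABA genes, as given above. Column run was left in the residuals. Between runs 1 and 2 of batch 3, Slc17a6 differed, as did 23% of all genes. How many neighbours remain once column run is removed was not tested.

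A few rats held the extremes of several genes. Female rat 20 of batch 4 had 573 normalized counts of Gad1, 730 of Gad2 and 220 of Slc32a1. Female rat 16 of batch 4 had 618, 633 and 177. These 2 rats held the highest 2 ranks of all 3 GABA genes, and they had 1040 and 808 genes listed at 0, above the median of 540. Their recovered raw totals were 24.8 and 25.2 M reads. For Slc17a7 they ranked 22nd and 5th of 81, and for Slc17a6 9th and 72nd. The part of the genes listed at 0 in this was not tested. Without these rats the batch 4 mean of Gad2 was 7.33 ± 0.58 (n = 25), still higher than batch 3 by 0.84 (SE 0.168, adjusted p = 2.16e-05, limma).

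Other rats were lowest or nearly so in some of the genes. Male rat 35 of batch 4 had the lowest Slc17a6, 5805 normalized counts, and the 2nd lowest Slc17a7, 1994. Male rat 24 of batch 3 had the lowest Slc17a7, 1766, and the lowest Gad2, 39, but ranked 7th of 81 for Slc32a1. Male rat 26 of batch 3, with the 2nd lowest Slc17a6, 6171, had the lowest recovered raw total, 5.74 M reads, and 1550 genes listed at 0.

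Across rats, no correlation of the 5 genes with the number of genes listed at 0 (n = 80) or the recovered raw total (n = 62) passed once p-values were adjusted over the 10 relations. The strongest was Slc17a7 with the genes listed at 0, with r = -0.21 and rho = -0.26 (adjusted permutation p = 0.431 and 0.229). With column run also removed, r was -0.30 (adjusted permutation p = 0.0712) and rho was -0.34, which passed (adjusted permutation p = 0.0224).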

How the data were processed

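Per the labels and the study's methods, the authors trimmed reads with cutadapt, used RSEM with the transcriptome of Ensembl to estimate counts per gene, scaled these to a common upper quartile in DESeq2, dropped libraries and genes with few reads, and deposited log2 values after adding a pseudocount of 1. Versions were not stated. RSEM divides reads between similar transcripts, and differences on this scale understate changes of low counts. No gene's row equalled that of any of the 5.

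Of 87 labelled samples, 6 had been removed by the authors and were not analysed here. All genes were fitted with limma 3.58.1 (R 4.3.3), with an intensity trend and Benjamini-Hochberg adjustment over 17512 genes. Sex was fitted with batch as a covariate, batch with sex, on 80 rats. The 5 genes and all lists were chosen with earlier results of these data known. Neighbours were the 5 genes with the highest Pearson's r of residuals, at a mean log2 of at least 5, of which only the nearest are named. Pathway and marker lists were not applied, since no source used here pairs the identifiers with symbols. The study's supplement pairs some of them and was not used. Promoters of all 5 genes were found in RefSeq by symbol. Outliers were searched by Dixon's test. Alternatives were a pseudocount of 8, a minimum mean log2 of 5, median of ratios scaling, rank-based normalization, column run, genes listed at 0 or 20 expression components as covariates, and leaving out each batch. Leaving out female rats 16 and 20 of batch 4 was added after the data were seen.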

Additional observations from a re-analysis of the deposited data

Results flagged for a closer look

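In each batch and sex with 4 to 10 rats, the highest and the lowest rat were tested by Dixon's gap for each of the 5 genes. Of 20 sets, 2 held a rat farther from the others than the 95% critical value, where chance gives about 1. Gad1 was at 8.35 (326 normalized counts) in female rat 15 of batch 2, and the other 3 females of that batch were between 7.57 and 7.67. Slc17a7 was at 10.79 (1766 normalized counts) in male rat 24 of batch 3, and the other 9 males of that batch were between 11.48 and 12.10.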

How the results depend on the processing

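The alternatives tried differed between results, from 2 for the levels to 12 for the sex difference, and the pairwise batch differences were refitted only without female rats 16 and 20, for 3 pairs. Most values kept their direction and their side of the threshold. Counts over all genes moved by more than 1.5 times in 4 cases. Sex called 7 genes with the 20 expression components as covariates, batch called 6180 with column run as a covariate, the interaction called 1 gene with a pseudocount of 8, and batches 2 and 3 within run 1 differed in 1 gene among those with a mean log2 of at least 5. Batch calls of Gad2 (range of batch means 0.68) and Slc17a7 (0.42) were lost with column run, and that of Slc17a7 (0.23) also without batch 3. The correlation of Gad2 and Slc17a6 was lost with column run removed (r = 0.24). By Spearman's rho, Gad1 with Slc32a1 missed the threshold without female rats 16 and 20 (rho = 0.25, adjusted permutation p = 0.0565). Slc17a7 with genes listed at 0 passed by rho with column run removed (rho = -0.34, adjusted permutation p = 0.0224). The remaining changes, for correlations by Pearson's r, concern values that passed no test at an adjusted p under 0.05. With the 20 components the sex difference was 0.50 for Gad1 (SE 0.571), 0.24 for Slc32a1, 0.00886 for Slc17a6 and, from 0.01, 0.67 for Slc17a7 (SE 0.308, unadjusted p = 0.033, adjusted p = 0.705, limma). Without batch 4 it was 0.0196 for Gad2 and 0.15 for Slc32a1, and without batch 3 it was -0.38 and -0.36. For Slc17a7 it was -0.0205 after rank-based normalization and -0.0175, -0.0318 and -0.0587 without batches 2, 3 and 6. Without female rats 16 and 20, batch 6 minus batch 4 was 0.0238 for Gad1. Without the 2 farthest rats, r was -0.0365 for Slc17a6 with Slc17a7, and, against genes listed at 0 or the raw total, 0.0176 for Gad1, -0.0179 for Slc32a1 and -0.0321 for Slc17a6. With column run removed, r with genes listed at 0 was 0.14 for Gad1 and 0.00602 for Slc17a6. The cause of these changes was not tested.

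No paired analysis was possible because a replicate number is a name in accession order and links no rats. Correlations with marker list levels, and those after removing a pan-neuronal list, were not run, since no source used here matched the identifiers to symbols. Batch and column run overlap, 4 to 15 rats of a sex and batch set the width of the intervals, and Slc32a1, at a median of 56 normalized counts, carries the most counting error of the 5 genes.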
